A study of Mus musculus with 16 samples.

Results

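The genes described here are 10 genes of the NF-κB pathway, listed by name. They include the inhibitors Nfkbia and Nfkbie, the related gene Nfkbiz and the feedback regulators Tnfaip3 and Birc3. The others are the target genes Tnfaip2 and Icam1 and the subunits Relb, Nfkb1 and Nfkb2. A probe set counted for a gene when the array's annotation gave it that symbol alone. By this rule 9 of the 10 genes were measured, by 21 of 45101 probe sets, among 18193 genes in all. Nfkb1 had no such probe set and was not analysed here. Where a gene had several probe sets, the one with the highest mean over the 16 arrays led, and the others are reported beside it. All 9 lead probe sets had a mean above the background of 2.97 on the log2 scale, the 95th percentile of spiked-in control transcripts that were absent from an array.

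The cells were airway epithelial cells of C57BL/6 mice grown at an air-liquid interface, with 1 Affymetrix array for each of 16 cultures. Cells were Mmp7-/-, here called Mmp7-null (deficient in the metalloproteinase matrilysin), or wild-type. The 4 groups were Mmp7-null scratched, Mmp7-null uninjured, wild-type scratched and wild-type uninjured, with 4 cultures each. Scratched cultures received 3 parallel scratches with a pipette tip, and every culture was kept in serum-free medium for 24 hours before its RNA was isolated. The labels do not give the time between scratch and harvest, or which cultures shared an animal, so p-values measure only the spread between these cultures.

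NF-κB is a family of dimeric transcription factors that is held in the cytoplasm by inhibitory IκB proteins. Signals from cytokine receptors, Toll-like receptors or cell stress lead to the degradation of IκB, and the released dimers enter the nucleus and switch on genes of inflammation and survival. Several of the genes they switch on encode inhibitors of the pathway, which is why transcripts such as Nfkbia and Tnfaip3 are widely used as readouts of recent NF-κB activity.

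Promoter sequences are shown for 6 of the genes to place the letters that NF-κB dimers recognise beside the expression data. RefSeq windows on GRCm38.p6, from 250 bases before to 50 bases after an annotated start, were on hand for 7 of the genes (Nfkbia, Nfkbie, Tnfaip3, Birc3, Tnfaip2, Icam1 and Nfkb2). The 250 bases before the start are printed 5′ to 3′ on the gene's strand. Capitals mark matches on either strand to the κB consensus of 10 letters or to GGAATTTCC (reverse complement GGAAATTCC), a motif of 9 letters that was added after the windows had been seen.
Nfkbia (chr12:55492648-55492897, minus strand): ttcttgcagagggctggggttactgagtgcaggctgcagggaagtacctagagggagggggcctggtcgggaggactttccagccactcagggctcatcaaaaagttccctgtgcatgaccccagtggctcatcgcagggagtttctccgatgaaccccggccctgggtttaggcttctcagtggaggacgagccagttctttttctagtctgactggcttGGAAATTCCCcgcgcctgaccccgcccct
Nfkbie (chr17:45555450-45555699, plus strand): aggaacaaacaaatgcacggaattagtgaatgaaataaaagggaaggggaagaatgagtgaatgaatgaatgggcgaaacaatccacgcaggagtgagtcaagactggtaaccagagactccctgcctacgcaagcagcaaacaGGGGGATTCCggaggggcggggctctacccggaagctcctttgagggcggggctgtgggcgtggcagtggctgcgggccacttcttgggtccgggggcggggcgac
Tnfaip3 (chr10:19015411-19015660, minus strand): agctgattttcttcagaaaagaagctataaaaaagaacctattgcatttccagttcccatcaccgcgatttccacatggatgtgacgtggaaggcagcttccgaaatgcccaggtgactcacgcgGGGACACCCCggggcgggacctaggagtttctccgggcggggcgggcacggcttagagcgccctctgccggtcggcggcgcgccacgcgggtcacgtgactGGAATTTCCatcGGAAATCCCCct
Nfkb2 (chr19:46304487-46304736, plus strand): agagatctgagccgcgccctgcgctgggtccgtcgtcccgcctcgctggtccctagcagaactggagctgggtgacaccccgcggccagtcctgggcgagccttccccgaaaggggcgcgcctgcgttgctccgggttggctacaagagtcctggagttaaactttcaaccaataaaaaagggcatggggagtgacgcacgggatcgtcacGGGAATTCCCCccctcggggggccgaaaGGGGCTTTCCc
Icam1 (chr9:21015690-21015939, plus strand): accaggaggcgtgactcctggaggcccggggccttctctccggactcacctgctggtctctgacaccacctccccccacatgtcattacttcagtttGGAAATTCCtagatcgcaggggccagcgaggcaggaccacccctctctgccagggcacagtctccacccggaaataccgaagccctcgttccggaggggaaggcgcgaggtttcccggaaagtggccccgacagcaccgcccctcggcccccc
Tnfaip2 (chr12:111442411-111442660, plus strand): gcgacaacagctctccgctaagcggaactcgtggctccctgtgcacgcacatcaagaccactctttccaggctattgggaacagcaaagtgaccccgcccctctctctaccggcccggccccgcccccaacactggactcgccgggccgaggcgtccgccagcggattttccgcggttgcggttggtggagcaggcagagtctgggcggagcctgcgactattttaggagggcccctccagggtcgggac

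The κB consensus was matched in 4 of the 7 genes, Nfkbia, Nfkbie, Tnfaip3 and Nfkb2, and in 5.14% of 27025 genes with a window (4.51% of 32851 windows). In Nfkbia the match GGAAATTCCC began 29 bases before the start, and in Nfkbie GGGGGATTCC began 106 bases before it. Tnfaip3 held GGGACACCCC and GGAAATCCCC, which began 125 and 12 bases before the start of its first annotated window, and its other window had none. Nfkb2 had matches in all 3 of its windows, and the first, shown above, held 3 matches of which a pair overlaps. The shorter motif was found in Nfkbia, inside the consensus match, in Tnfaip3 24 bases and in Icam1 153 bases before the start, and in 0.317% of all windows. Tnfaip2 and Birc3 matched neither motif in these windows. A match describes letters only; binding was not measured.

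Some properties of the arrays bear on the values below. The single Mmp7 probe set read 2.13 to 2.59 on all 16 arrays, at background in both genotypes, so it gives no check of the genotype labels. Spiked-in control transcripts divided the arrays into 3 sets. The Lys set held Mmp7-null scratched 1 and 4 and Mmp7-null uninjured 1 and 2. The Phe set held Mmp7-null scratched 2 and 3, Mmp7-null uninjured 3 and 4, wild-type scratched 1 and wild-type uninjured 1, and the Trpn set held the other 6 wild-type arrays. What the sets stand for is not stated. The genotypes share only the Phe set, so genotype differences are also given with the set as a factor in the model (the spike-in block) and for the Phe arrays alone. Wild-type scratched 3 and Mmp7-null scratched 1 had the lowest upper quartiles of signal, and wild-type scratched 4 had the largest difference between the 3′ and 5′ probes for actin; counts are also given without these 3 arrays.

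Scratching raised 6 of the 9 measured genes in Mmp7-null cultures (Tnfaip2, Nfkbiz, Tnfaip3, Birc3, Nfkbie and Nfkbia) and 5 of 9 in wild-type cultures (Nfkbiz, Tnfaip2, Tnfaip3, Birc3 and Nfkbia). None was lower past the threshold in either genotype. Calls were made in limma with Benjamini-Hochberg adjustment over all genes at a threshold of 0.05. The background of these counts was 2.27% of all genes higher in Mmp7-null and 2.55% higher in wild-type cultures. In either direction it was 4.72% and 4.85%, and 2.45% and 2.3% were lower. Of the 11655 genes above background, as all 9 genes were, 412 and 460 were higher. The 9 genes were chosen with earlier results of these data known, so these shares describe the counts and do not test them. Over all genes the wild-type calls were 464 higher and 419 lower, and with arrays centred on their median they were 344 higher and 595 lower, while the same 5 genes rose. The median log2 difference of the 9 genes was 0.46 in Mmp7-null and 0.38 in wild-type cultures, against −0.02 and 0.01 over all genes. All 4 scratched values lay above all 4 uninjured values for 7 genes in Mmp7-null cultures, where 4.1% of all genes were separated upward in this way, and for 6 genes in wild-type cultures, where 4.21% were. Without the 3 arrays named above, 5 genes passed in Mmp7-null and 4 in wild-type cultures, Nfkbia being the one lost in both. Bulk RNA cannot tell a change in the number of cells of a type from a change in RNA per cell.

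**Figure D1:**
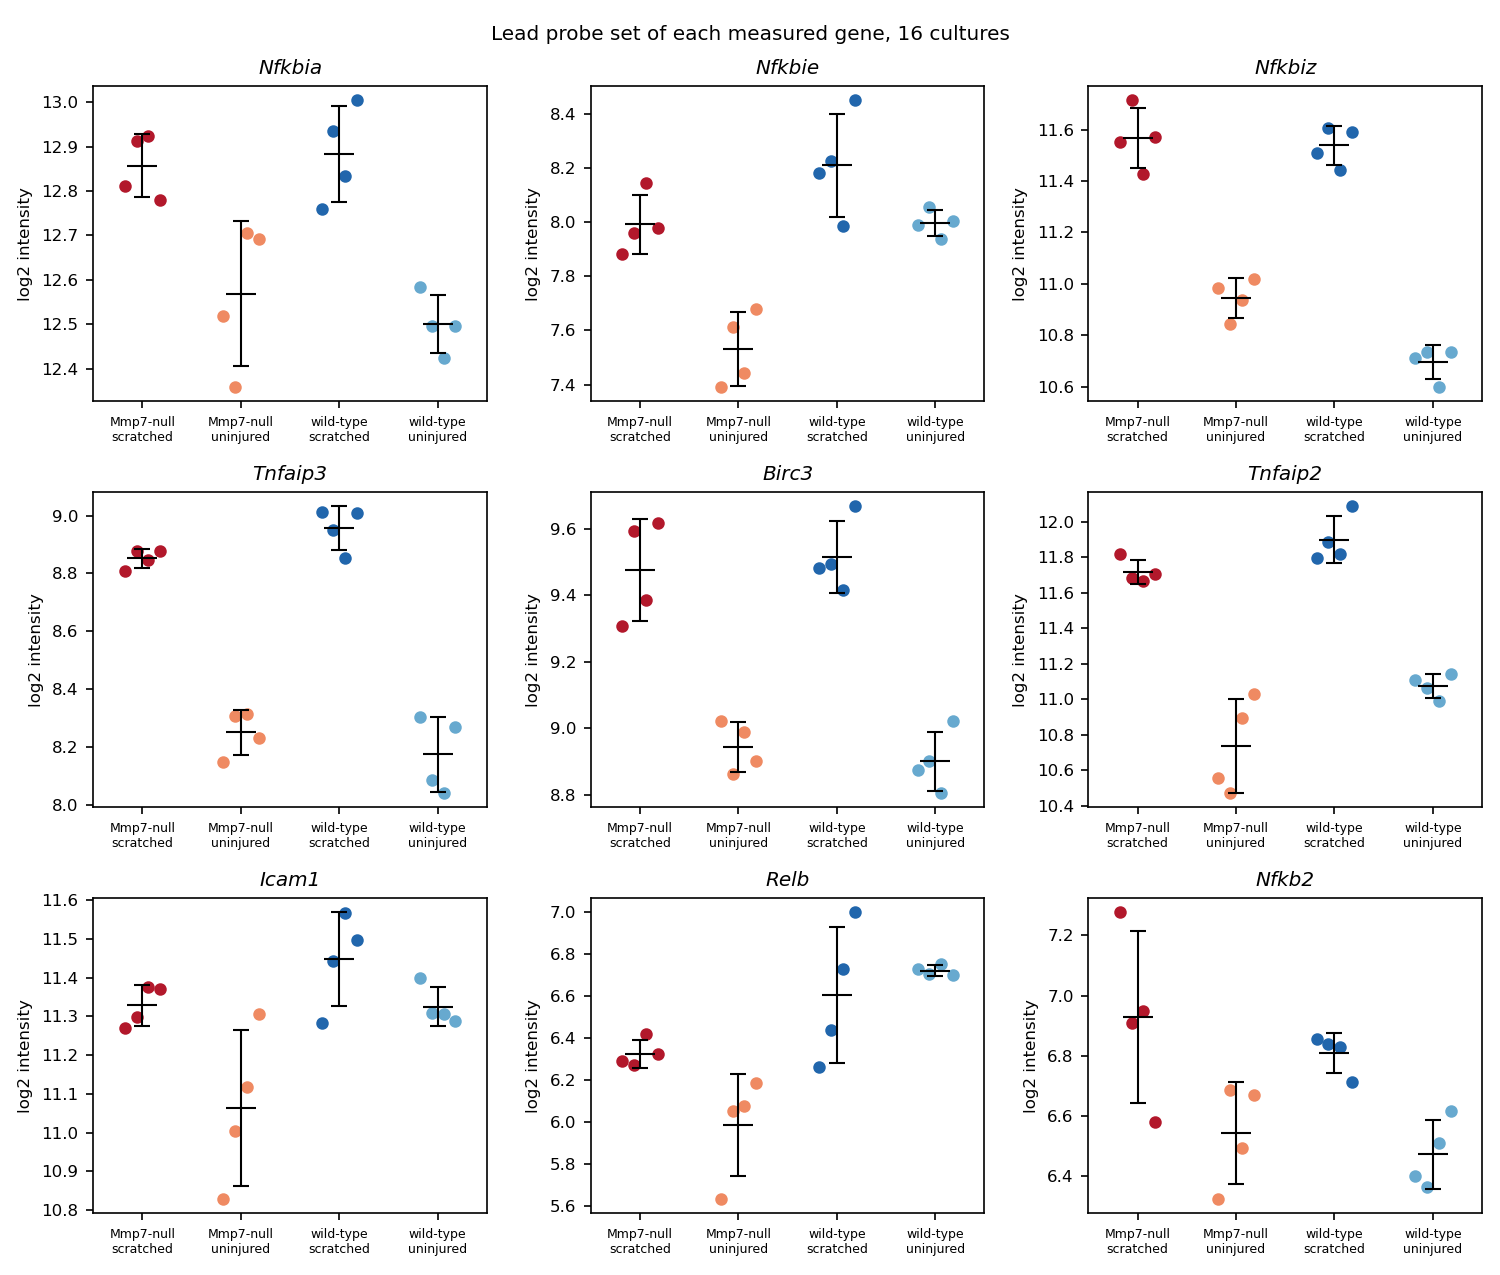
Log2 intensity of the lead probe set of the 9 measured genes. Each point is 1 culture, the horizontal mark is the group mean and the bar its SD (n = 4); y axes differ between genes and do not start at 0. Scratched cultures sit above uninjured ones of their genotype for Nfkbia, Nfkbiz, Tnfaip3, Birc3 and Tnfaip2, and Relb is lowest in uninjured Mmp7-null cultures.

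Nfkbia encodes IκBα, the inhibitor that binds NF-κB dimers in the cytoplasm and is resynthesised after their activation. Its lead probe set, 1438157_s_at, read 12.81, 12.91, 12.92 and 12.78 log2 units in scratched and 12.52, 12.36, 12.70 and 12.69 in uninjured Mmp7-null cultures. In wild-type cultures it read 12.76, 12.93, 12.83 and 13.00 when scratched and 12.58, 12.50, 12.43 and 12.50 when uninjured. Scratched and uninjured values did not overlap in either genotype. The log2 difference was 0.29 ± 0.07 (SE, adjusted p = 0.0428) in Mmp7-null and 0.38 ± 0.07 (adjusted p = 0.00835) in wild-type cultures, the smallest called scratch differences among the 9 genes. The Mmp7-null call is close to the threshold: it was lost under 18 of 29 alternatives, with adjusted p between 0.0101 and 0.293 over all of them. Without the 3 doubtful arrays adjusted p was 0.0739 in Mmp7-null and 0.0708 in wild-type cultures. Within the Phe set the differences were 0.22 (adjusted p = 0.293) and 0.18 (adjusted p = 0.702), and within the Lys set the Mmp7-null difference was 0.36 (adjusted p = 0.031).

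The other 4 probe sets of Nfkbia did not all move alike. Adjusted over all 45037 probe sets other than controls, 1448306_at rose in both genotypes, by 0.30 (adjusted p = 0.0318) in Mmp7-null and 0.36 (adjusted p = 0.0101) in wild-type cultures. With 1420088_at the differences were 0.43 and 0.32 and with 1449731_s_at they were 0.26 and 0.28, none past the threshold. The dim probe set 1420089_at gave −0.07 in Mmp7-null and 0.20 in wild-type cultures. Mmp7-null scratched 1 read 12.65 with 1420088_at, against 11.66 to 11.96 on the other arrays of its group.

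Nfkbie encodes IκBε, another cytoplasmic inhibitor induced by NF-κB. With its lead probe set, 1458299_s_at, values were 7.88, 7.96, 8.14 and 7.98 in scratched and 7.39, 7.61, 7.44 and 7.68 in uninjured Mmp7-null cultures, with no overlap. In wild-type cultures they were 8.18, 8.23, 7.99 and 8.45 when scratched and 7.99, 8.06, 7.94 and 8.0 when uninjured, with overlap. The gene rose with scratch in Mmp7-null cultures, by 0.46 ± 0.09 (SE, adjusted p = 0.00972). In wild-type cultures the difference was 0.21 ± 0.09 (adjusted p = 0.236). The gap between these differences was itself 0.25, with a 95% interval of −0.03 to 0.52, and did not pass. The second probe set, 1431843_a_at, gave 0.34 in Mmp7-null and 0.17 in wild-type cultures, neither past the threshold.

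Nfkbiz encodes IκBζ, a nuclear IκB protein that acts with NF-κB at a subset of its secondary target genes; the gene lies on chromosome 16. With its lead probe set, 1417483_at, values were 11.55, 11.71, 11.43 and 11.57 in scratched and 10.98, 10.84, 10.94 and 11.02 in uninjured Mmp7-null cultures. Scratched wild-type cultures read 11.51, 11.61, 11.44 and 11.59, against 10.71, 10.74, 10.60 and 10.73 in uninjured ones. Both scratched groups lay in the same range, and the uninjured groups lay below it at separate levels. The difference was 0.62 ± 0.06 (SE, adjusted p = 8.43e-05, 1.54-fold) in Mmp7-null and 0.84 ± 0.06 (adjusted p = 2.01e-06, 1.79-fold) in wild-type cultures. Both calls held under all 29 alternatives, with ranges of 0.57 to 0.68 and 0.70 to 0.89. Of its other probe sets, 1457404_at rose in Mmp7-null cultures (0.58, adjusted p = 0.00773; in wild-type 0.36, adjusted p = 0.0893). The third, 1448728_a_at, rose in wild-type cultures (0.90, adjusted p = 0.0462; in Mmp7-null 0.72, adjusted p = 0.118), although wild-type scratched 4 read 7.35 with it, below the highest uninjured wild-type value of 7.53.

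Tnfaip3 encodes a ubiquitin-editing enzyme that ends NF-κB signalling. With its lead probe set, 1433699_at, values were 8.81, 8.88, 8.85 and 8.88 in scratched and 8.15, 8.31, 8.32 and 8.23 in uninjured Mmp7-null cultures. Scratched wild-type cultures read 9.01, 8.95, 8.85 and 9.01, against 8.30, 8.09, 8.04 and 8.27 in uninjured ones. Neither genotype showed overlap. The gene rose by 0.60 ± 0.06 (SE, adjusted p = 0.000103, 1.52-fold) in Mmp7-null and by 0.78 ± 0.06 (adjusted p = 3.47e-06, 1.72-fold) in wild-type cultures, and both calls held under all 29 alternatives. Their differences ranged from 0.55 to 0.64 in Mmp7-null and from 0.47 to 0.82 in wild-type cultures over these, the 0.47 being the mean of the gene's probe sets. The dimmer 1450829_at, at 3.72 to 4.67, gave 0.50 in Mmp7-null and 0.15 in wild-type cultures, neither past the threshold.

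Birc3 encodes a ubiquitin ligase of the inhibitor of apoptosis family that works in the signalling complex of TNF receptors; the gene lies on chromosome 9. With its lead probe set, 1421392_a_at, values were 9.31, 9.59, 9.39 and 9.62 in scratched and 9.02, 8.86, 8.99 and 8.90 in uninjured Mmp7-null cultures. Scratched wild-type cultures read 9.48, 9.49, 9.42 and 9.67, against 8.87, 8.90, 8.81 and 9.02 in uninjured ones. Here too all scratched values lay above all uninjured ones of the same genotype. The gene rose by 0.53 ± 0.08 (SE, adjusted p = 0.00127) in Mmp7-null and by 0.61 ± 0.08 (adjusted p = 0.000236) in wild-type cultures. Its second probe set, 1425223_at, read 2.88 to 3.26 on all arrays, near background, and gave 0.00 and 0.04. With the mean of both probe sets the gene's differences were 0.27 (adjusted p = 0.00424) in Mmp7-null and 0.33 (adjusted p = 0.000566) in wild-type cultures. Within the Phe set, with 2 arrays or 1 a group, neither passed (0.54 with adjusted p = 0.151, and 0.61 with adjusted p = 0.218).

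Tnfaip2, a gene first found as induced by TNF, had the largest scratch difference of the 9 genes in Mmp7-null cultures. Its lead probe set, 1438855_x_at, read 11.82, 11.68, 11.67 and 11.70 in scratched and 10.56, 10.47, 10.89 and 11.03 in uninjured Mmp7-null cultures. Scratched wild-type cultures read 11.80, 11.89, 11.82 and 12.09, against 11.11, 11.07, 10.99 and 11.14 in uninjured ones. The scratched groups overlapped each other and lay above every uninjured culture. The difference was 0.98 ± 0.11 (SE, adjusted p = 0.000187, 1.97-fold) in Mmp7-null and 0.82 ± 0.11 (adjusted p = 0.000323, 1.77-fold) in wild-type cultures. A second probe set, 1416273_at, rose in the same way, by 1.11 and 0.87, and both calls of the lead held under all 29 alternatives, with ranges of 0.71 to 1.25 and 0.60 to 0.87. In uninjured Mmp7-null cultures both probe sets read lower on the Lys arrays (10.56 and 10.47 with the lead) than on the Phe arrays (10.89 and 11.03). The third, 1457918_at, averaged below background.

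Icam1 encodes an adhesion molecule for leukocytes and is a long-known NF-κB target. It had 1 probe set, 1424067_at, which read 11.27, 11.30, 11.37 and 11.37 in scratched and 10.83, 11.00, 11.12 and 11.31 in uninjured Mmp7-null cultures. Scratched wild-type cultures read 11.28, 11.44, 11.57 and 11.50, against 11.40, 11.31, 11.31 and 11.29 in uninjured ones. Groups overlapped in both genotypes. The difference was 0.26 (95% interval 0.08 to 0.44, adjusted p = 0.0954) in Mmp7-null and 0.12 (−0.06 to 0.30, adjusted p = 0.537) in wild-type cultures. Without Mmp7-null uninjured 4, the highest of its group, the Mmp7-null difference was 0.35 and passed (adjusted p = 0.0188).

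Relb encodes a subunit of the alternative NF-κB pathway, in which it pairs with the processed product of Nfkb2; the gene lies on chromosome 7. It had 1 probe set, 1417856_at, with values of 6.29, 6.27, 6.42 and 6.32 in scratched and 5.63, 6.05, 6.08 and 6.18 in uninjured Mmp7-null cultures. Scratched wild-type cultures read 6.26, 6.44, 6.73 and 7.0, against 6.73, 6.70, 6.76 and 6.70 in uninjured ones. The scratched Mmp7-null values all lay above the uninjured ones, and the scratched wild-type values spread on both sides of theirs, highest on the doubtful arrays 3 and 4. The scratch difference was 0.34 (95% interval 0.04 to 0.64, adjusted p = 0.213) in Mmp7-null and −0.12 (−0.41 to 0.18, adjusted p = 0.769) in wild-type cultures. Without the 3 doubtful arrays it was 0.35 (adjusted p = 0.109) in Mmp7-null and −0.37 (adjusted p = 0.139) in wild-type cultures.

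Nfkb2 encodes a precursor that is both an IκB-like inhibitor and, once processed, a DNA-binding subunit. With its lead probe set, 1429128_x_at, values were 7.28, 6.91, 6.95 and 6.58 in scratched and 6.33, 6.69, 6.50 and 6.67 in uninjured Mmp7-null cultures, with overlap. In wild-type cultures they were 6.86, 6.84, 6.83 and 6.71 when scratched and 6.40, 6.36, 6.51 and 6.62 when uninjured, without overlap. The differences of 0.38 (adjusted p = 0.0927) in Mmp7-null and 0.33 (adjusted p = 0.156) in wild-type cultures did not pass. Without Mmp7-null scratched 4, the lowest of its group, the Mmp7-null difference was 0.50 and passed (adjusted p = 0.0183). The other probe set, 1425902_a_at, gave 0.27 in Mmp7-null and −0.15 in wild-type cultures, so the probe sets differ in sign in wild-type. The leads of Nfkb2, Tnfaip2, Nfkbia and Nfkbie have the suffixes _x_at or _s_at, which the manufacturer uses for probes that may match more than 1 transcript.

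**Figure D2:**
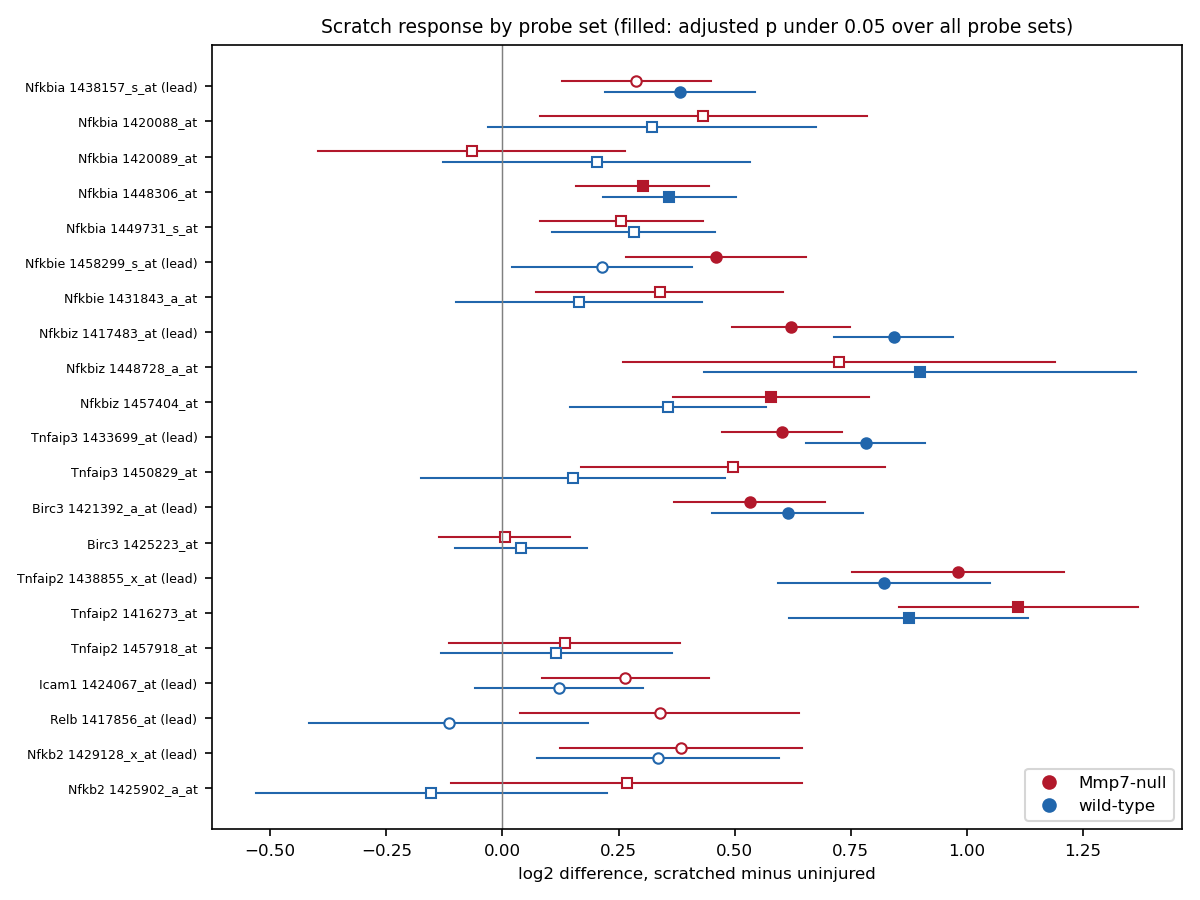
Log2 difference, scratched minus uninjured, for each of the 21 probe sets in Mmp7-null (red) and wild-type (blue) cultures. Circles are lead and squares other probe sets, lines are 95% intervals, and filled symbols passed the threshold adjusted over all probe sets. The points lie right of 0 for 20 of 21 probe sets in Mmp7-null and 19 of 21 in wild-type cultures. Over all 18193 genes, by lead probe set, 5796 differences lay above 0 in Mmp7-null and 10611 in wild-type cultures. The 21 include 1457918_at of Tnfaip2, which averaged below background.

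Fitted one by one over all 45037 probe sets, 8 of the 21 passed in Mmp7-null cultures (2.25% of all probe sets) and 8 of 21 in wild-type cultures (2.39%). The lead of Nfkbia in Mmp7-null cultures was not among them (adjusted p = 0.068 over all probe sets). Probe sets of 1 gene share its transcript and are not independent. Within the Lys set, 5 genes passed in Mmp7-null cultures, with Birc3 at 0.52 (adjusted p = 0.0863) and Nfkbie at 0.43 (adjusted p = 0.204) lost and Icam1 gained at 0.40. Within the Phe set 3 genes passed in each genotype, the same 3, Nfkbiz, Tnfaip2 and Tnfaip3; the wild-type value there sets 1 array against 1 with the spread taken from the other groups. Within the Trpn set 5 wild-type genes passed. With the set as a block the counts stayed at 6 and 5.

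Between genotypes, 3 of the 9 genes differed in uninjured cultures: Relb and Nfkbie were lower and Nfkbiz was higher in Mmp7-null than in wild-type cultures. The background was 4.79% of all genes called in either direction, 2.3% higher and 2.5% lower. Relb averaged 5.99 ± 0.24 in Mmp7-null and 6.72 ± 0.03 in wild-type uninjured cultures (SD, n = 4 each), a difference of −0.74 ± 0.14 (SE, adjusted p = 0.00736). Nfkbie averaged 7.53 ± 0.14 and 8.0 ± 0.05, a difference of −0.46 ± 0.09 (SE, adjusted p = 0.0084). Nfkbiz averaged 10.95 ± 0.08 and 10.70 ± 0.07, a difference of 0.25 ± 0.06 (SE, adjusted p = 0.0283). The cell type markers Foxj1 (0.52), Dcn (1.0), Krt5 (−0.36) and Cdh1 (−0.23) also passed in the same comparison. None of the 3 overlapped between genotypes; such separation occurred in 5.44% of all genes upward and 6.22% downward.

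In the fit with the spike-in block none of these genotype calls passed; the standard error of the Relb difference was 0.18 there, against 0.14 without the block. The differences were then −0.48 for Relb (adjusted p = 0.398), −0.40 for Nfkbie (adjusted p = 0.284) and 0.27 for Nfkbiz (adjusted p = 0.288). Within the Phe set they were −0.60, −0.43 and 0.26, from 2 Mmp7-null arrays and 1 wild-type array, too few for their p-values to bear on the calls. Over all genes 872 passed without the block and 57 with it, 54 of them shared. The directions stayed as they were and the sizes of Nfkbie and Nfkbiz moved little; the part of the spike-in set in the differences was not tested beyond these values. Of the 21 probe sets, 3 passed between genotypes in uninjured cultures (2.2% of all probe sets). The second probe set of Nfkbie was lower in all Mmp7-null uninjured cultures too (−0.43, adjusted p = 0.109). Tnfaip2 (−0.34, adjusted p = 0.091) and Icam1 (−0.26, adjusted p = 0.102) did not pass, and both passed without Mmp7-null uninjured 4 (−0.44 with adjusted p = 0.0164, and −0.34 with adjusted p = 0.0149). A second probe set of Tnfaip2, 1416273_at, was lower in all 4 uninjured Mmp7-null cultures than in any wild-type one, and its difference of −0.44 did not pass over all probe sets (adjusted p = 0.0839). The lead probe sets of Nfkbia, Tnfaip3, Birc3 and Nfkb2 differed by 0.04 to 0.08. The other probe set of Nfkb2, 1425902_a_at, gave −0.48 (95% interval −0.86 to −0.11, adjusted p = 0.245), opposite in sign to the lead.

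In scratched cultures 0 of the 9 genes passed between genotypes in limma, against 6.21% of all genes (3.29% higher and 2.92% lower). Over all genes these calls were 599 higher and 531 lower, or 600 and 316 with arrays centred on their median. Of the 9 genes 1 (Nfkbie) had an unadjusted p under 0.05, as did 4062 of all 18193 genes. The differences ranged from −0.28 for Relb (95% interval −0.58 to 0.02, adjusted p = 0.242) and −0.22 for Nfkbie (−0.41 to −0.03, adjusted p = 0.179) to 0.12 for Nfkb2 (−0.14 to 0.38). The Relb difference was −0.01 without the 3 doubtful arrays and −0.03 with the spike-in block. For Nfkbia, Nfkbiz and Birc3 the 95% intervals lay within −0.20 to 0.16. No lead probe set separated the genotypes, while 4.19% of all genes did so upward and 28.5% downward. The downward share includes genes at background and is far above the 2.92% called lower. Of all genes 64.1% were above background, and the median difference over all genes was −0.04. Of the 21 probe sets, 1 passed between genotypes in scratched cultures (3.22% of all probe sets). This was 1457404_at of Nfkbiz, which read 9.91, 9.67, 9.55 and 9.46 in Mmp7-null and 9.21, 9.22, 9.11 and 9.26 in wild-type scratched cultures, a difference of 0.45 (adjusted p = 0.0232). It did not pass with the spike-in block (0.53, adjusted p = 0.131) or without the 3 doubtful arrays (0.34, adjusted p = 0.186), and the lead probe set of Nfkbiz differed by 0.03.

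The scratch response itself was compared between genotypes as the Mmp7-null difference minus the wild-type difference. In limma 0 of the 9 genes passed, against 0.132% of all genes. Of the 9 genes 2 had an unadjusted p under 0.05, as did 1417 of all 18193 genes. The 2 were Nfkbiz, whose lead probe set gave a smaller response in Mmp7-null cultures (difference −0.22, 95% interval −0.40 to −0.04, adjusted p = 0.514), and Relb (0.45, 0.03 to 0.87, adjusted p = 0.595). For Nfkbiz, 1457404_at gave 0.22 (−0.08 to 0.52), opposite in sign to the lead, and 1448728_a_at gave −0.17. Without the 3 doubtful arrays the value for Relb was 0.72 (adjusted p = 0.135). The interval for Tnfaip2 was −0.16 to 0.48, that for Tnfaip3 −0.36 to 0.00 and that for Birc3 −0.31 to 0.15. The dimmer probe set of Tnfaip3, 1450829_at, gave 0.34 (−0.12 to 0.81), against −0.18 with the lead. No member probe set passed, against 0.0866% of all probe sets.

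**Figure D3:**
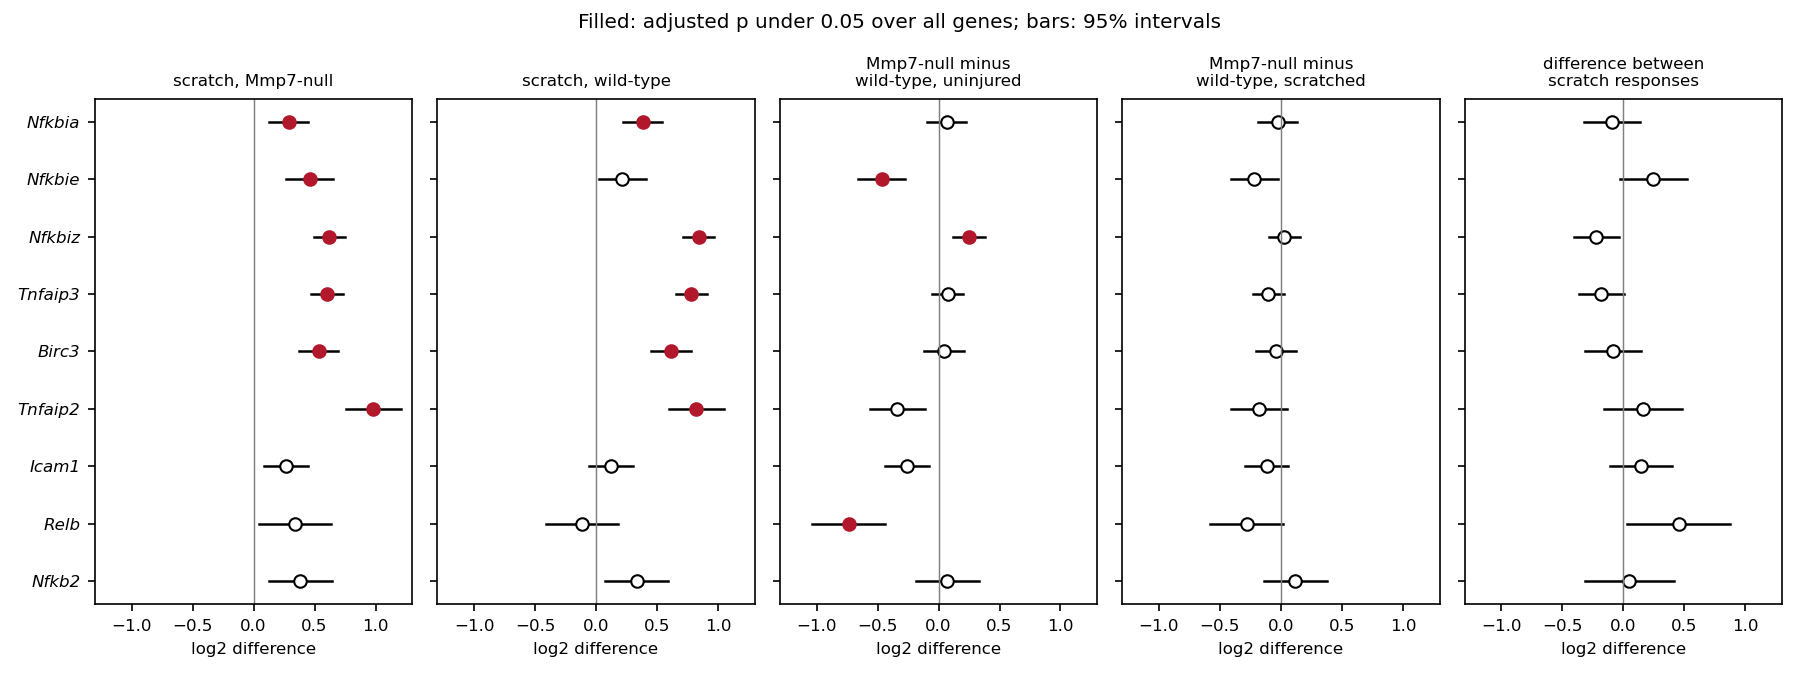
Log2 difference of each lead probe set in 5 comparisons (columns), with 95% intervals from limma; filled points passed the threshold adjusted over all genes. Filled points lie right of 0 in both scratch columns, 3 are filled for genotype in uninjured cultures, and none is filled for genotype in scratched cultures or for the difference between the scratch responses.

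The rest of the pathway was described with lists drawn from general knowledge, but chosen with earlier results of these data known. Their counts are therefore description and not an independent test. Of 5 other subunits and IκB proteins (Rel, Rela, Nfkbib, Nfkbid and Bcl3), 4 were above background and 0 passed in limma in any of the 5 comparisons. At an unadjusted p under 0.05 there were 0 for each scratch comparison, 3 between genotypes in uninjured cultures, 0 in scratched ones and 1 for the difference between responses. Over all 18193 genes these counts were 3161 for scratch in Mmp7-null and 2993 in wild-type cultures. They were 2817 between genotypes in uninjured cultures, 4062 in scratched ones and 1417 for the difference between responses. Without the 3 doubtful arrays 2 of them passed in uninjured cultures, both lower in Mmp7-null: Rela, the main activating subunit, at −0.34 (adjusted p = 0.0289; 0.0836 with all arrays) and Nfkbib, which encodes IκBβ, at −0.22 (adjusted p = 0.0289; 0.0802 with all arrays). With the spike-in block neither passed (adjusted p = 0.84 and 0.503). Their median scratch difference was 0.07 in Mmp7-null and −0.02 in wild-type cultures.

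Among 30 measured kinases, adaptors and ubiquitin enzymes of the pathway, 2 were higher after scratch in Mmp7-null cultures, and 1 was higher and 1 lower in wild-type cultures. These counts are near the 4.72% and 4.85% of all genes called for scratch, and the genes are given as single values. Irak3, an inhibitory kinase of Toll-like receptor signalling, rose by 0.99 (adjusted p = 0.0309) in Mmp7-null cultures, while its other probe set gave 0.07. Tnip1, a partner of the Tnfaip3 protein, rose there by 0.32 (adjusted p = 0.028). In wild-type cultures Ikbke, an IKK-related kinase, rose by 0.60 (adjusted p = 0.00757) and Card10, a scaffold upstream of IKK, fell by 0.41 (adjusted p = 0.024). Without the 3 doubtful arrays Irak3, Tnip1 and Ikbke did not pass (adjusted p = 0.063, 0.0971 and 0.0799) and Card10 did. The difference between responses passed for 0 of the 30 genes.

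Among 25 measured upstream ligands and receptors, of which 19 were above background, 2 were higher after scratch in Mmp7-null cultures. In wild-type cultures 1 was higher and 1 lower. Over all genes 4.72% and 4.85% were called for scratch in the 2 genotypes (2.27% and 2.55% higher). The difference between responses passed for 0 of the 25 genes. With counts this small the genes are given as single values. Il1rn, the antagonist of the interleukin-1 receptor, rose by 1.18 (adjusted p = 0.00466), with 0.23 and 0.26 at its other probe sets, and Tnfrsf12a, the receptor of TWEAK, rose by 0.82 (adjusted p = 0.0249), with 0.96 at its other probe set. In wild-type cultures the cytokine Il18 rose by 0.51 (adjusted p = 0.0318; 0.0613 with the spike-in block and 0.0751 without the 3 doubtful arrays). Il1rap, the accessory chain of the interleukin-1 receptor, fell there by 0.74 (adjusted p = 0.0102), while its other 4 probe sets gave −0.13 to 0.13. In uninjured cultures Il18 was higher (0.55) and the receptor Il1r1 lower (−0.50) in Mmp7-null than in wild-type cultures, and neither passed with the spike-in block (adjusted p = 0.35 and 0.197).

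Of 33 measured other direct targets, 26 were above background. After scratch 11 rose and 0 fell in Mmp7-null cultures, and 9 rose and 0 fell in wild-type cultures, all of them above background. Over all genes 2.27% and 2.55% rose. The medians of the 33 targets, including those not above background, were 0.28 and 0.12. Ptgs2, the inducible cyclooxygenase, rose by 2.08 (adjusted p = 7.18e-05) in Mmp7-null and by 2.54 (adjusted p = 3.47e-06) in wild-type cultures. The granulocyte factor Csf3 rose by 1.07 in both (adjusted p = 0.00159 and 0.000945). Among the largest called changes in Mmp7-null cultures were also the chemokine Ccl5 (1.19) and complement factor Cfb (1.06). In wild-type cultures these were Csf2 (1.38) and the RNase gene Zc3h12a (0.86, with 0.14 at its other probe set). Cfb also averaged higher in scratched (10.95 log2 units) than in uninjured (10.52) wild-type cultures. For Ccl5, Csf2 and Zc3h12a the difference in the other genotype is not given here. Of the 33 targets 0 passed for the difference between responses, against 0.132% of all genes. These names are therefore not shown to mark responses of a single genotype, nor to mark shared ones. Without the 3 doubtful arrays 10 targets rose in Mmp7-null cultures, and 7 rose and 1 fell in wild-type cultures.

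**Figure D4:**
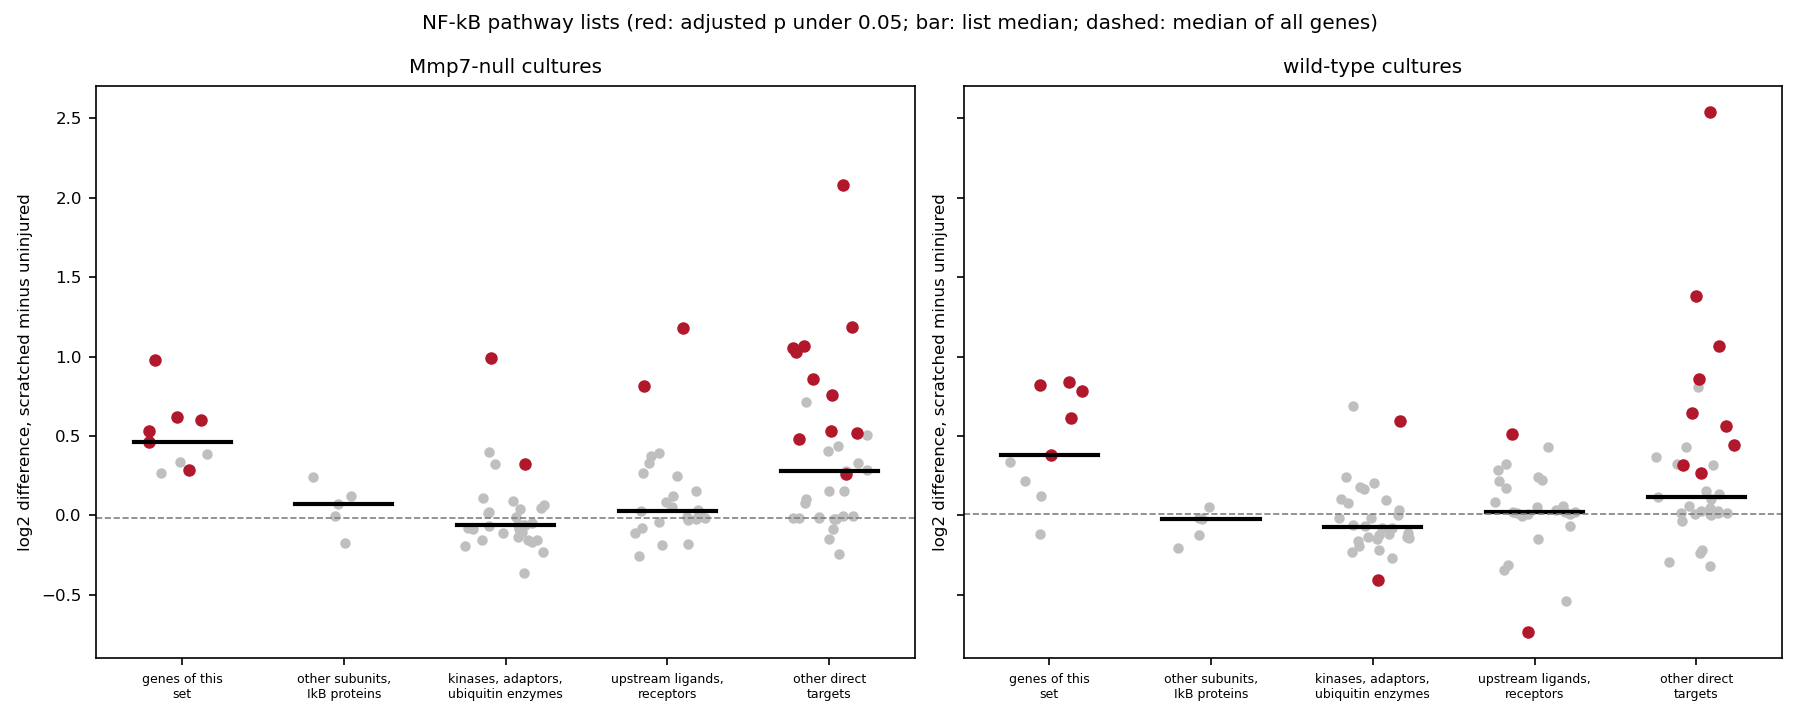
Log2 difference, scratched minus uninjured, for each measured gene of 5 lists in Mmp7-null (left) and wild-type (right) cultures. The column headed genes of this set holds the 9 genes described here; red points passed the threshold over all genes, bars are list medians and the dashed line is the median of all genes. The 9 genes have medians of 0.46 and 0.38, and the other direct targets 0.28 and 0.12.

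Between genotypes in uninjured cultures, 2 of the 33 other targets were higher and 5 lower in Mmp7-null cultures. Over all genes 2.3% were higher and 2.5% lower. Cxcl1, a chemokine for neutrophils, had a log2 difference of −2.60 (adjusted p = 0.000442), with −2.66 and −0.09 at its other probe sets. The complement gene Cfb was at −1.58 (adjusted p = 0.000543), the acute-phase gene Saa3 at −0.71 (adjusted p = 0.00552) and the cytokine gene Csf2 at 0.79 (adjusted p = 0.00539). With the spike-in block only Cxcl1 among the 33 passed (adjusted p = 0.0392). In scratched cultures 0 of the 33 were higher and 3 lower, against 3.29% and 2.92% of all genes. The 3 were Cxcl1 (−2.70), Cfb (−0.95) and Cxcl2 (−0.36), and with the block Cxcl1 alone passed (adjusted p = 0.0179).

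All 12 airway epithelial markers were above background, with summed linear intensities of 64768 to 74420 over all arrays. In each genotype 2 of them rose and 2 fell after scratch; the luminal keratin genes Krt8 (0.41 in Mmp7-null and 0.51 in wild-type) and Krt18 (0.38 and 0.60) rose and the basal keratin gene Krt5 (−0.45 and −0.80) fell in both. The other called epithelial marker in Mmp7-null cultures was Ehf, a transcription factor of epithelia (−0.23, adjusted p = 0.0415). In wild-type cultures it was Trp63, a transcription factor of basal cells (−0.48, adjusted p = 0.0049). The difference between responses passed for 0 of the 12 epithelial markers. Markers of other cell types were mostly absent: Ptprc, the pan-leukocyte marker, averaged 2.36 and the collagen gene Col1a1 2.72, both at background. Of 16 measured leukocyte markers 6 were above background, and their summed linear intensity, most of it Lyz2, was 8960 to 11198 in scratched and 6490 to 8813 in uninjured Mmp7-null cultures, and 8757 to 11115 in scratched and 6550 to 8707 in uninjured wild-type cultures. Of these 16 only Cd68 passed for scratch, in wild-type cultures (1.03, adjusted p = 0.000407). Of 9 fibroblast markers 2 were above background (Vim and Dcn), and the sum was 227 to 340 in scratched and 123 to 183 in uninjured Mmp7-null cultures, and 122 to 156 in scratched and 80.8 to 106 in uninjured wild-type cultures. Dcn rose by 1.23 and 1.58, while its other probe set gave −0.01 and 0.07. Of 9 endothelial markers only Eng was above background, and sums ran from 48.2 to 53.2 over all arrays. The leukocyte and fibroblast sums were thus higher in scratched than in uninjured cultures of each genotype, as were the called NF-κB genes. The sums follow their brightest markers. By direction alone, 6 leukocyte markers were higher and 10 lower after scratch in Mmp7-null cultures, and 15 and 1 in wild-type cultures. For fibroblast markers these counts were 5 and 4, and 8 and 1. The part of such cells in the differences of the NF-κB genes was not tested.

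Some of these markers also passed between genotypes. In uninjured cultures Foxj1, the transcription factor of ciliated cells, was higher in Mmp7-null than in wild-type cultures (0.52, adjusted p = 0.0228), as was Dcn (1.0, adjusted p = 0.011, with −0.03 at its other probe set). Krt5 (−0.36, adjusted p = 0.0411) and the cadherin gene Cdh1 (−0.23, adjusted p = 0.0141) were lower there. In this comparison 0 of 16 leukocyte markers passed in limma, with 1 at an unadjusted p under 0.05 (2817 of 18193 over all genes). None of the 4 called markers, Foxj1, Dcn, Krt5 and Cdh1, passed with the spike-in block (adjusted p between 0.0699 and 0.395). In scratched cultures Foxj1 (0.93, adjusted p = 0.0005) and Vim, which encodes the intermediate filament protein of mesenchymal cells (1.71, adjusted p = 0.00374), were higher in Mmp7-null cultures, and both passed with the block (adjusted p = 0.0081 and 0.0357). Cd68, a marker of macrophages, was lower (−0.92, adjusted p = 0.00115), and its scratch response was smaller in Mmp7-null cultures (difference −1.12, adjusted p = 0.0434); with the block neither passed (adjusted p = 0.0653 and 0.0693). The part of these markers in the genotype values of Relb, Nfkbie and Nfkbiz was not tested.

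For each of the 9 genes the 3 most similar profiles were sought by Pearson's r with the lead probe set over the 16 arrays, among 11654 other genes above background. These arrays share 4 groups, so r describes mainly differences between groups. Tnfaip3 was closest to Ccnb2 (r = 0.98), Tm7sf2 and Edn1, and Tnfaip2 to Hk2 (r = 0.98), Muc5b and Cxcl5. Nfkbiz and Birc3 shared Rdh10 as their closest gene (r = 0.97 for each), followed by Fn1 and Mt2 for Nfkbiz and by Mab21l3 and Fdft1 for Birc3. Nfkbia was closest to Tgm2 (r = 0.95), Csf3 and Them5, and Nfkbie to Itgav (r = 0.96), Ehd1 and Specc1. Relb was closest to Rxra (r = 0.95), Adgrg1 and Rnpepl1, Icam1 to Cldn7 (r = 0.94), Map7d1 and Tapbp, and Nfkb2 to Mafg (r = 0.90), Stk40 and Ceacam1.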

How the data were processed

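The deposited table holds RMA intensity values on a linear scale for 16 arrays, which the authors produced with RMA, a method that corrects background, normalizes and summarises the probes of each set, per the submitters' processing notes; its version was not given. Values were converted to log2. Probe sets were named from the platform annotation: of 45037 other than the 64 controls, 34945 had 1 symbol, 932 several and 9160 none. The labels name a smaller array of the same family than the one the table and annotation match; the probe sets were used as deposited. Each of 18193 genes was represented by its brightest probe set. Group means were estimated over the 16 arrays in 1 limma model (version 3.58.1, R 4.3.3; 12 residual degrees of freedom), with eBayes and Benjamini-Hochberg adjustment over all genes at 0.05; errors are standard errors of the model or SDs as stated. The median SE was 0.1 log2 units for differences between groups and 0.14 for the difference between responses, and the number of arrays limits the precision.

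The members and gene lists were chosen with earlier results of these data known. Named are all members, the 4 largest called changes of each other list in each comparison, Mmp7, and the 3 nearest profiles of each member; the remaining called genes are counted only. Alternatives were a replicate block, a fit of only the 8 arrays compared, leaving out the dimmest 40% of genes, every probe set or the mean of probe sets, trended robust variance, array weights, repeated quantile normalization, median centring, the spike-in set as a block and within sets, and leaving out the 3 doubtful arrays or each array in turn. The lists, the block and the doubtful arrays rest on choices made with these data in view. The model was tested on simulated data.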

Additional observations from a re-analysis of the deposited data

Results flagged for a closer look

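In 84 sets of 4 arrays, each a group at a probe set of the 9 genes, 4 held an array whose gap to the nearest other, divided by the range of the group, passed Dixon's 95% critical value; chance gives about 1 in 20. For the lead probe set of Nfkbiz, wild-type uninjured 3 read 10.6, below 10.71 to 10.74 on the other arrays of its group. For 1448306_at of Nfkbia the same array read 10.36, below 10.54 to 10.57. For 1425223_at of Birc3, near background, Mmp7-null scratched 3 read 3.26, above 2.91 to 2.96. For 1457918_at of Tnfaip2, which averages below background, wild-type scratched 3 read 3.11, above 2.65 to 2.67. No member's scratch response passed the test of the difference between genotypes, which 0.132% of all genes passed. Not passing does not show that the responses were equal.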

How the results depend on the processing

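Of the 14 called differences of single genes, none changed sign under any alternative. The scratch calls of Nfkbiz, Tnfaip2 and Tnfaip3 held under all of them. For wild-type cultures these alternatives include the fit within Phe, with 1 array against 1, too few for its p-values to bear on the calls. The scratch call of Nfkbia in Mmp7-null cultures was lost with the replicate block, the 8 arrays, every probe set, the mean of probe sets, median centring, the Phe set, without the 3 doubtful arrays, and without any 1 of Mmp7-null scratched 1, 2 or 3, Mmp7-null uninjured 1 or 2, wild-type scratched 2 or 3 or any wild-type uninjured array (adjusted p 0.035 to 0.112 over the single omissions). The genotype call of Nfkbiz in uninjured cultures was lost with the spike-in block, within Phe, with the mean of probe sets, with median centring and with the omission of Mmp7-null uninjured 1, 3 or 4 or wild-type uninjured 1 or 3. Leaving out single arrays gave 5 to 7 genes for scratch in Mmp7-null, 5 in wild-type, 2 to 4 for genotype in uninjured and 0 in scratched cultures, and 0 for the difference between responses. Deviations of same-numbered cultures from their group means had correlations of −0.22 to 0.31, over 0.1 in 5 of 24 pairs. The highest was between wild-type scratched 3 and wild-type uninjured 3. Such values cannot tell whether the numbers pair cultures, which the labels do not say. With the replicate block 5, 5, 3, 0 and 0 genes passed in the 5 comparisons in that order, with only Nfkbia in Mmp7-null cultures lost (adjusted p = 0.0783).

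Counts that moved by over 1.5 times were 1 gene, Nfkbie, for genotype in scratched cultures with array weights, 0 for genotype in uninjured cultures with the spike-in block and within Phe, and 3 for each scratch comparison within Phe. Over all genes, calls moved as far for scratch in Mmp7-null cultures (402 with 8 arrays, 286 within Lys, 79 within Phe, 516 and 528 without Mmp7-null uninjured 2 and 3; 859 as reported) and in wild-type cultures (1405 with array weights, 418 within Trpn, 204 within Phe; 883). They did so for genotype in uninjured cultures (57 with the block, 42 within Phe, 1310 without the doubtful arrays, 480 without Mmp7-null uninjured 1, 534 without wild-type uninjured 1; 872) and in scratched cultures (252, 223, and 527 with 8 arrays, 1745 with array weights; 1130). For the difference between responses they ran from 5 with median centring to 100 with array weights (24 as reported); the cause was not tested.

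Every change of sign was at a difference that did not pass. For genotype in scratched cultures, Nfkbia was 0.011 with the mean of probe sets, 0.013 with repeated quantile normalization, 0.0074 with median centring, 0.088 with the spike-in block, 0.16 within Phe, 0.024 without the doubtful arrays and −0.067 to 0.014 over the single omissions. Birc3 was 0.032 with array weights, 0.0082 within Phe, 0.045 without the doubtful arrays and −0.086 to 0.018 over the single omissions. Icam1 was 0.0054 with the spike-in block and 0.054 within Phe, Relb was 0.084 within Phe, Tnfaip3 was 0.098 with the mean of probe sets, Nfkb2 was −0.035 without the doubtful arrays, and Nfkbiz ran from −0.020 to 0.075 over the single omissions. For genotype in uninjured cultures, Nfkb2 was −0.21 with the mean of probe sets, and Tnfaip3 was −0.00056 with the spike-in block and −0.030 within Phe. For scratch in wild-type cultures, Icam1 was −0.12 within Phe, and Relb was 0.0032 within Trpn and −0.25 to 0.00051 over the single omissions. For the difference between responses, Nfkb2 was −0.052 with array weights, −0.11 within Phe and without the doubtful arrays, and −0.067 to 0.16 over the single omissions. Tnfaip3 was 0.083 with the mean of probe sets, Nfkbia 0.044 within Phe and Birc3 0.0015 without the doubtful arrays.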
